A study of Mus musculus with 72 samples.

Results

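Bacterial lipopolysaccharide (LPS), the glycolipid of the outer membrane of Gram-negative bacteria, was added to macrophages grown from mouse bone marrow, and their messenger RNA was compared with that of macrophages that received vehicle. The comparison rests on 6 of the 72 libraries of the series, 3 with LPS and 3 with vehicle, chosen by their titles from the table of the marrow experiment, which holds 18 libraries. LPS macrophages received 0.1% ethanol for 16 h and 100 ng/ml LPS for 6 h; the protocol text of the labels gives the same figure per µl, while the label of each sample gives it per ml. Vehicle macrophages received 0.1% ethanol for 16 h and 0.1% D-PBS, the solvents of the study's drugs. Both groups came from C57BL/6J marrow, differentiated for 7 days in medium with the supernatant of L929 fibroblasts, a source of M-CSF, and were moved to a serum-free medium for treatment.

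Both groups carried the genotype label Setd1bHet, while their titles say wt. They served the study as the control of a knockout of Setd1b, a histone H3 lysine 4 methyltransferase, and are called control macrophages here; the sources used here name no allele, no Cre line and no age. The label for sex reads female and the growth protocol speaks of male mice. The Y-linked genes Ddx3y, at 18, 15.8 and 17 TPM in LPS libraries and 24.6, 21.2 and 22.3 TPM in vehicle libraries, and Eif2s3y, at 15, 16.5 and 16.3 TPM in LPS libraries and 18.3, 17.4 and 17.9 TPM in vehicle libraries, were expressed in all 6 libraries, which goes against the label female. The labels speak of 3 biological replicates a group and do not say that these came from separate animals. The p-values rest on the spread within groups, pooled over the 18 libraries of the marrow experiment, and this spread may be technical.

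LPS is bound by CD14 and by MD-2 with Toll-like receptor 4, which signals from the plasma membrane through MyD88 to NF-kB and the MAP kinases, and from endosomes through TRIF to IRF3 and interferon beta. The first arm is known for cytokines, chemokines and its own inhibitors; secreted interferon beta then acts back on the cells through its receptor and STAT factors and raises the antiviral genes. In macrophages LPS is also known for nitric oxide and itaconate production, and for arrest of proliferation driven by M-CSF.

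Promoters are shown of 5 genes whose values follow, searched for letters that these pathways and the cell cycle machinery are known to read, namely 2 genes of the NF-kB arm (Il1b, Nfkbia), 1 that holds both kinds of element (Cxcl10), 1 of the interferon arm (Ifit1) and 1 cell cycle gene that is lower after LPS (Cdk1). Each is the 250 bases before the annotated start, 5′ to 3′ on the gene's own strand, from RefSeq with the GRCm38.p6 build; capitals mark matches to the searched motifs, on either strand. Il1b lies at chr2:129371140-129371389 (minus strand), Nfkbia at chr12:55492648-55492897 (minus), Cxcl10 at chr5:92348890-92349139 (minus), Ifit1 at chr19:34640639-34640888 (plus) and Cdk1 at chr10:69352913-69353162 (minus).
Il1b: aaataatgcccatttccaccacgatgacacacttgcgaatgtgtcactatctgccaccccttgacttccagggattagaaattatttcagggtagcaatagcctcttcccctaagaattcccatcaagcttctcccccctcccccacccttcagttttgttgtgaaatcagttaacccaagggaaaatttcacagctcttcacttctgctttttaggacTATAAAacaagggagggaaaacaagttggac
Nfkbia: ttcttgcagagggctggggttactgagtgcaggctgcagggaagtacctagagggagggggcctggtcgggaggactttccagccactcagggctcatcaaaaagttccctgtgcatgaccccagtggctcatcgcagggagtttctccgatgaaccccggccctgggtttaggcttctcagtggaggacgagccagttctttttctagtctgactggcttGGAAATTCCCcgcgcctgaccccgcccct
Cxcl10: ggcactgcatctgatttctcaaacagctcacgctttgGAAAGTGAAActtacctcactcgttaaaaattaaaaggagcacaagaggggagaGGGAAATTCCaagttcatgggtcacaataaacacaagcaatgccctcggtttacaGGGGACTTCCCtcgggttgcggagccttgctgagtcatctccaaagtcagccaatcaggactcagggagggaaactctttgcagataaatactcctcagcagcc
Ifit1: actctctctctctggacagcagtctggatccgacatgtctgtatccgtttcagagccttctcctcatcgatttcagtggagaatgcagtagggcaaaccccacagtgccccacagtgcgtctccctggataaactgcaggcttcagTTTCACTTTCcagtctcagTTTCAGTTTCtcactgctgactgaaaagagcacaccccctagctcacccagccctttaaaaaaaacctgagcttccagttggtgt
Cdk1: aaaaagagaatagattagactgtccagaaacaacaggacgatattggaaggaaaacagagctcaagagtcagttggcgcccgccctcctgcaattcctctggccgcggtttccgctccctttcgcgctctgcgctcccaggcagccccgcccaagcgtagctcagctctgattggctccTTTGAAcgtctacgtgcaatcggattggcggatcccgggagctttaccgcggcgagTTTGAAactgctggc

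The motifs searched were the NF-kB consensus, the core of the interferon-stimulated response element (ISRE, GAAA, any 2 bases, GAAA), the TATA box (TATAAA) and the cell cycle homology element (CHR, TTTGAA). In the sequences above, the Il1b promoter holds a TATA box whose first base is at -31 from the start, and the search found no NF-kB or ISRE match in its window. The Nfkbia promoter holds an NF-kB match at -29, and the Cxcl10 promoter holds an ISRE core at -213 and NF-kB matches at -159, -104 and -103, of which the last 2 overlap. Ifit1 has ISRE cores at -104 and -85, and Cdk1 has CHR letters at -71 and -15.

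Over the whole promoter entries (250 bases before to 50 after the start), the ISRE core was found in 19.1% of 241 entries of genes higher by at least 8-fold after LPS. It stood in 1.9% of 525 entries of genes lower by at least 4-fold and in 3.31% of the 9419 entries of all listed genes. Among 57 entries of antiviral interferon-stimulated genes 45.6% held it. The NF-kB consensus was in 17.4% of entries of the genes higher by at least 8-fold, 10.9% of those lower by at least 4-fold and 10.5% of all entries, and in 3 of 14 entries of proinflammatory cytokine genes (21.4%). The TATA box was in 19.9%, 7.05% and 6.73% of the same 3 sets in the same order, and CHR letters in 21.2%, 15% and 11.9%. Of 25 entries of mitosis genes 76.0% held the CHR letters. A match describes letters only, one gene can have several entries, and 7376 of the 9179 listed genes had an entry.

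The table gives TPM, transcript abundances per transcript length that sum to a fixed total over all transcripts of a library and keep no read depth, so the depth of the libraries is unknown. Between libraries of 1 group, Pearson's r of log2(TPM + 1) across genes was 0.9951 to 0.9957 for LPS and 0.9946 to 0.995 for vehicle. All 12 macrophage markers were listed and tested, and their summed level was 26280 to 28120 TPM in LPS libraries and 39290 to 40220 TPM in vehicle libraries, with the sum led by Lyz2, at 21606, 23612 and 22660.4 TPM in LPS libraries and 36176, 35255 and 35191 TPM in vehicle libraries. Gene by gene, 4 of the 12 were called higher after LPS and 7 lower. With the scaling described below 6 were higher and 3 lower, and Lyz2 lost its call. The sum thus follows Lyz2 and not the list as a whole. Of 11 neutrophil markers 2 were listed, S100a8 (147, 155 and 152 TPM with LPS, 39.3, 41.9 and 37.6 TPM with vehicle) and Csf3r (33.1, 30.5 and 31.4 TPM with LPS, 19, 16.9 and 17.3 TPM with vehicle), and their summed level was 180 to 186 TPM in LPS libraries and 54.9 to 58.8 TPM in vehicle libraries. Of 8 dendritic cell markers 1 was listed (Itgax), as was 1 of 8 fibroblast and endothelial markers (Kdr, 8.14, 8.37 and 7.62 TPM with LPS and 2.1, 2.47 and 2.51 TPM with vehicle). Of 11 B or T lymphocyte, 8 erythroid or megakaryocyte and 6 mast cell or basophil markers 0 were among the listed genes. An unlisted gene has no value here, so this does not show that these cell types were absent. Whether the share of another cell type moved with LPS was not tested, and in bulk RNA fewer cells of a type and less RNA per cell cannot be told apart.

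LPS changed most of the measured transcriptome. Of 9159 genes tested, 1887 (20.6%) were higher after LPS and 5925 (64.7%) were lower at a limma adjusted p under 0.05, and the median log2 change, LPS over vehicle, was -0.49 (quartiles -1.01 and 0.04). By at least 2-fold, 901 genes (9.84%) were higher and 2329 (25.4%) lower. The largest changes pointed up: 253 genes were higher and 113 lower by at least 8-fold. In 7996 genes (87.3%) no LPS library overlapped a vehicle library, so groups that do not overlap were the usual case. When TPM were scaled so that the median gene did not move, which raises the median log2 change by 0.49 and that of single genes by other amounts because of the pseudocount, 3564 (38.9%) were higher and 3556 (38.9%) lower of 9151 tested. Every count of a gene list below is read against these shares and this median, and the scaled split is given where it differs by over 10 percentage points.

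**Figure D1:**
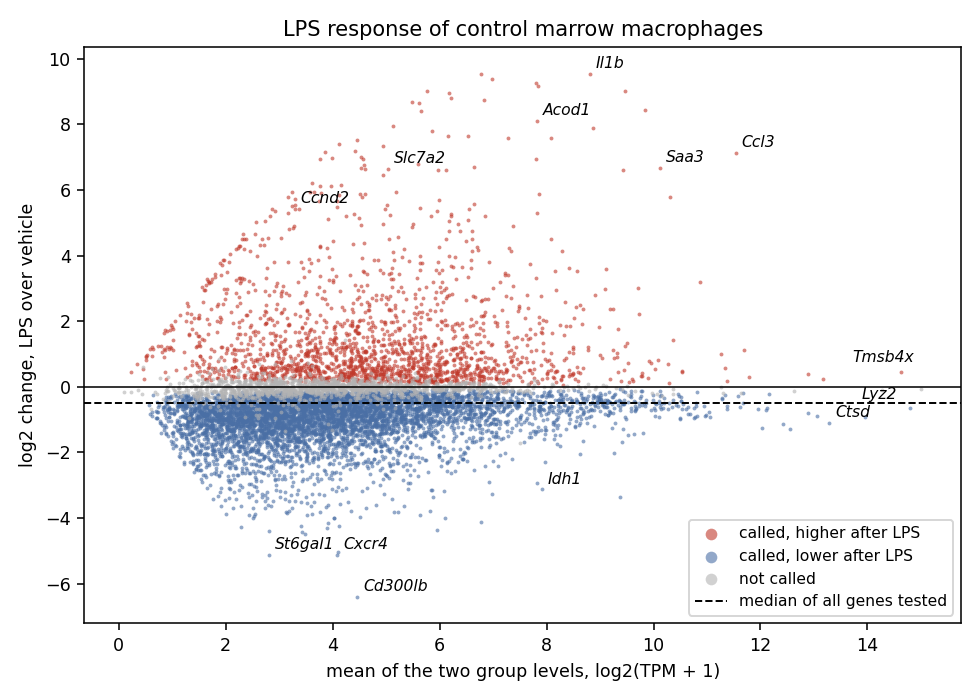
Log2 change, LPS over vehicle, on the vertical axis against the mean level of both groups in log2(TPM + 1) on the horizontal axis, 1 point per tested gene of control macrophages. Genes called higher are red, genes called lower blue and genes not called grey; the dashed line is the median of -0.49, and a fan of red points rises to a log2 change of 9.54 while the lowest point, Cd300lb, lies at -6.41.

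The strongly induced messages took up a large share of the pool. Genes higher by at least 2-fold held 32.7%, 32.0% and 32.5% of the listed TPM in LPS libraries, against 3.26%, 3.29% and 3.26% in vehicle libraries. Genes higher by at least 8-fold held 23.9%, 23.2% and 23.8% of it in LPS libraries, against 0.487%, 0.468% and 0.476% in vehicle libraries. A single chemokine message, Ccl3, held 3.97%, 3.69% and 3.92% in LPS libraries, against 0.0298%, 0.0288% and 0.0291% in vehicle libraries. Genes lower by at least 2-fold held 5.77%, 5.86% and 5.78% with LPS, against 17.3%, 17.5% and 17.4% with vehicle. In each LPS library 102 genes made up 50% of the listed TPM, against 134 to 138 genes in vehicle libraries. The share of the full TPM total that the table does not list was 9.21% to 9.34% with LPS and 14.3% to 14.8% with vehicle, and what those transcripts are was not analysed here.

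**Figure D2:**
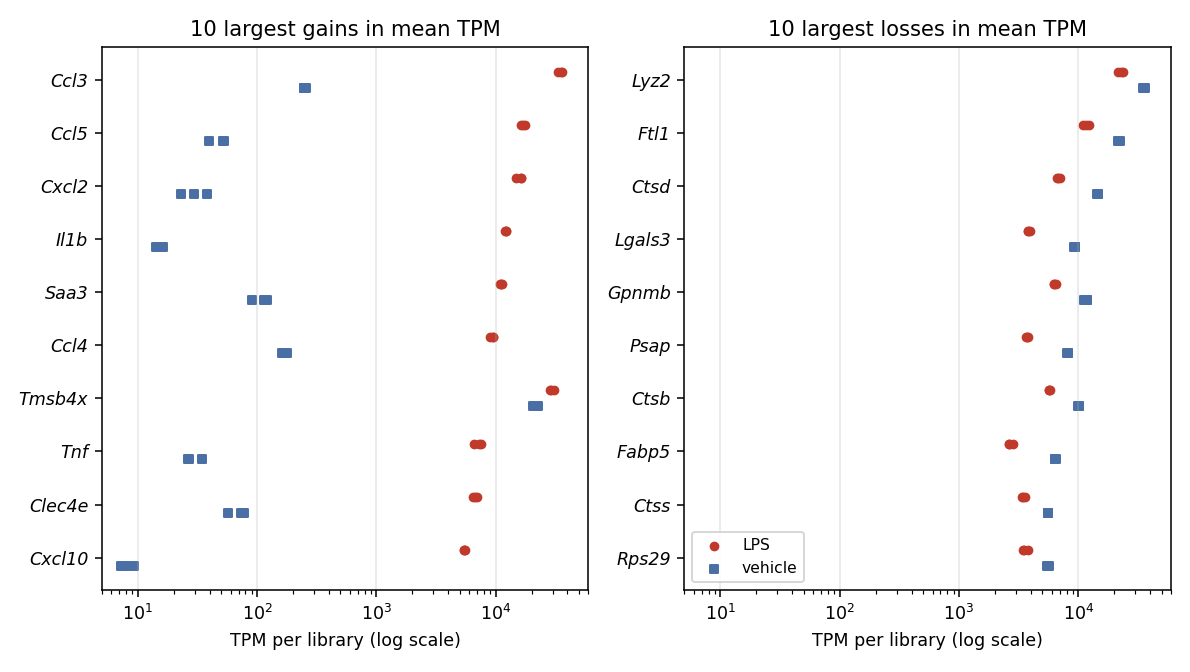
TPM of each library on a logarithmic horizontal axis for the 10 genes with the largest gain and the 10 with the largest loss in mean TPM after LPS, 3 LPS points and 3 vehicle points a gene. The gains are led by Ccl3 and the losses by Lyz2, and in every gene shown the LPS libraries lie apart from the vehicle libraries.

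The largest gains in TPM were chemokines, cytokines and secreted defence proteins. Ccl3, which draws monocytes and lymphocytes through CCR1 and lies at chr11:83647844-83649355 on the minus strand of GRCm38, had 36015, 33530.0 and 35571 TPM with LPS, against 256, 246 and 248 TPM with vehicle, a log2 change of 7.13 (SE 0.03, adjusted p = 1.42e-24). It was the most abundant induced message in every LPS library. Ccl5, which draws T cells and monocytes, had 16334, 17086 and 17553 TPM with LPS, against 52.3, 39.6 and 52.5 TPM with vehicle, a log2 change of 8.44 (SE 0.10, adjusted p = 1.97e-19). Ccl4, the neighbour of Ccl3, had 9601, 8946 and 9559.9 TPM with LPS, against 162, 169 and 177 TPM with vehicle, a log2 change of 5.78 (SE 0.055, adjusted p = 2.85e-20). Ccl3, Ccl4 and Ccl5 stand on chromosome 11 with Ccl2, the ligand of CCR2 on monocytes, which had 1819, 1811 and 1700.3 TPM with LPS, against 30.6, 29 and 29.1 TPM with vehicle, a log2 change of 5.86 (SE 0.075, adjusted p = 6.36e-19). The CC chemokines together held 7.84%, 7.55% and 7.88% of the listed TPM with LPS, against 0.218%, 0.203% and 0.205% with vehicle. Of 11 CC chemokines tested, 10 rose and 1 fell. Ccl9 was already abundant without LPS, with 5800.1, 5634 and 5637 TPM with LPS, against 681, 602 and 578 TPM with vehicle (log2 change 3.20). Ccl22 and Ccl17, ligands of CCR4, differed in their start: Ccl22 had 169.9, 127 and 154 TPM with LPS, against 0.972, 1.38 and 0.996 TPM with vehicle (log2 change 6.16), while Ccl17 had 9.84, 13.3 and 15.4 TPM with LPS and was listed at 0 throughout the vehicle group. Ccl12 had 250.0, 253 and 242 TPM with LPS, against 1.37, 1.34 and 1.21 TPM with vehicle (log2 change 6.76). The induced members thus spanned a wide range of levels, from Ccl17 to Ccl3. Ccl6 was the member that fell, with 481, 488 and 480.5 TPM with LPS, against 664, 626 and 644 TPM with vehicle (log2 change -0.42), and its change had the other sign after scaling (0.12, not called).

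The neutrophil attractants Cxcl1, Cxcl2 and Cxcl3, which lie together on chromosome 5, rose with log2 changes above those of every CC chemokine. Cxcl2 had 16441, 14709.7 and 16345 TPM with LPS, against 38.2, 23.2 and 29.4 TPM with vehicle, a log2 change of 9.01 (SE 0.12, adjusted p = 8.45e-19). Cxcl1 had 2335, 2182 and 2484 TPM with LPS, against 6.44, 3.66 and 3.54 TPM with vehicle, a log2 change of 8.75 (SE 0.14, adjusted p = 1.39e-17), and Cxcl3 had the highest log2 change of the 12 largest, 9.54. These are ligands of CXCR2. Cxcl10, an interferon-induced ligand of CXCR3 whose promoter is printed above, had 5482, 5571 and 5429 TPM with LPS, against 7.75, 9.27 and 7.24 TPM with vehicle (log2 change 9.25). Of 8 CXC chemokines 7 rose and 1 fell, and after scaling all 8 rose. They held 3.14%, 2.88% and 3.15% of the listed TPM with LPS, against 0.0879%, 0.0883% and 0.0884% with vehicle. The member that fell was Pf4, platelet factor 4, with 491, 504 and 523 TPM with LPS, against 581, 596 and 585 TPM with vehicle (log2 change -0.22), which was higher after scaling (0.32).

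Of 25 proinflammatory cytokines 19 were listed and tested, and all 19 rose, by 1.66 to 9.53 on the log2 scale (median 5.87). Their share of the listed TPM was 3.43% to 3.54% with LPS and 0.0130% to 0.0144% with vehicle. Members such as Csf2 and Il23a stayed under 1 TPM in every vehicle library, and a member low in all groups would not have been tested. Il1b, the secreted interleukin 1 that needs cleavage by caspase 1, had 12286, 12096 and 12219.9 TPM with LPS, against 15.9, 16.4 and 14.3 TPM with vehicle. Il1a, its alarmin relative on the same chromosome, had 5502, 5431 and 5447 TPM with LPS, against 9.56, 7.25 and 9.07 TPM with vehicle, a log2 change of 9.16 (SE 0.085, adjusted p = 2.33e-20). Il1a stood below Il1b in every LPS library and in every vehicle library. Tnf, the trimeric cytokine of acute inflammation, had 7497, 6612 and 7278 TPM with LPS, against 34.6, 26.2 and 27 TPM with vehicle. Il6, which drives the acute phase response, had 3193, 3362 and 3139 TPM with LPS, against 4.33, 3.24 and 4.19 TPM with vehicle. Each LPS library of both lay far above every vehicle library. The subunit genes of the interleukin 12 family all rose: Il12b had 1179, 1302 and 1209.8 TPM with LPS, against 1.6, 1.03 and 1.52 TPM with vehicle, Il27 had 972, 949 and 980.1 TPM with LPS, against 1.86, 0.972 and 1.53 TPM with vehicle (log2 change 8.64) and Il23a had 19.7, 17.7 and 18.7 TPM with LPS, against 0.0728, 0.084 and 0.0774 TPM with vehicle (log2 change 4.19). Tnfsf15, a T cell costimulator known as TL1A, had 252, 259 and 258 TPM with LPS, against 0.813, 0.72 and 0.816 TPM with vehicle, a log2 change of 7.17 (SE 0.16, adjusted p = 8.07e-16). Csf2, which encodes GM-CSF, had 35.3, 27.6 and 35.1 TPM with LPS, against 0.116, 0 and 0 TPM with vehicle and was listed at 0 in 2 vehicle libraries.

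Of 10 genes of anti-inflammatory mediators and receptors 8 rose and 2 fell (Tgfb1 and Il10rb), and after scaling all 10 were higher. Outside the cytokine lists, Saa3, an acute phase protein secreted by macrophages, had 11173, 10877 and 11357 TPM with LPS, against 115, 91.2 and 122 TPM with vehicle, a log2 change of 6.67 (SE 0.082, adjusted p = 3.99e-19). Clec4e, the receptor Mincle for mycobacterial glycolipid, had 6708, 7026 and 6449 TPM with LPS, against 73, 56.7 and 78.2 TPM with vehicle, a log2 change of 6.59 (SE 0.083, adjusted p = 5.76e-19). Tmsb4x, an actin monomer binder that was among the most abundant messages in both groups, had 28529, 30621 and 29074 TPM with LPS, against 22753, 21418 and 20408 TPM with vehicle (log2 change 0.45), a gain in TPM among the 10 largest from a small log2 change. The peptide vasoconstrictor endothelin 1, Edn1, had 318, 275 and 287 TPM with LPS, against 0.281, 0.483 and 1.12 TPM with vehicle (log2 change 7.53).

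The receptor complex itself moved in both directions. Cd14, the coreceptor that hands LPS on, had 1334, 1209.8 and 1326 TPM with LPS, against 115, 102 and 115 TPM with vehicle, a log2 change of 3.53 (SE 0.054, adjusted p = 7.14e-18). Tlr4, the signalling receptor, had 12.4, 14 and 13.5 TPM with LPS, against 24.5, 24.6 and 25.1 TPM with vehicle, a log2 change of -0.85 (SE 0.11, adjusted p = 2.3e-06). So the coreceptor and the receptor moved oppositely, with no overlap between groups in either. Myd88, the adaptor of the NF-kB arm, had 154, 152 and 155 TPM with LPS, against 50.6, 52 and 51.1 TPM with vehicle (log2 change 1.57). Of the kinases that follow it, Irak2 rose (83.2, 79.5 and 83.3 TPM with LPS, 23.5, 24.6 and 25.3 TPM with vehicle, log2 change 1.71), as did Irak3, a pseudokinase that inhibits the complex (50.7, 48.5 and 49.3 TPM with LPS, 7.73, 8.09 and 7.02 TPM with vehicle, log2 change 2.55). The other kinase genes of the IRAK family moved the other way. Irak1 fell (17.9, 18 and 16.5 TPM with LPS, 41.8, 43.6 and 41.2 TPM with vehicle, log2 change -1.23), and so did Irak4 (9.36, 9.5 and 8.66 TPM with LPS, 18.3, 19.2 and 19.1 TPM with vehicle, log2 change -0.97). Tab1, which activates the kinase TAK1, fell as well (log2 change -1.18). Of 23 genes of the receptor complex and its adaptors 11 rose and 9 fell, and after scaling 16 rose and 4 fell.

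Among the 9 genes of other Toll-like receptors and their chaperones 5 rose and 4 fell, and after scaling 6 rose and 3 fell. Tlr2, the receptor of bacterial lipopeptides, had 369, 372 and 364 TPM with LPS, against 24.1, 24.3 and 24.4 TPM with vehicle, a log2 change of 3.87 (SE 0.056, adjusted p = 2.98e-18). Tlr3, a sensor of double-stranded RNA, had 20, 21 and 19.6 TPM with LPS, against 3.46, 3.83 and 3.41 TPM with vehicle (log2 change 2.22). Tlr2 stood about level with Tlr4 in vehicle libraries and far above it in LPS libraries. Tlr13, a sensor of bacterial ribosomal RNA, fell (39.5, 41 and 36.2 TPM with LPS, 143, 148 and 146 TPM with vehicle, log2 change -1.88). Tlr9, a sensor of bacterial DNA, fell (0.65, 0.606 and 0.535 TPM with LPS, 3.11, 3.41 and 3.07 TPM with vehicle, log2 change -1.39), as did the Toll-like receptor chaperone Cnpy3 (log2 change -1.70).

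Most NF-kB genes rose. Of 21 subunits, kinases and inhibitors 17 rose and 3 fell (median log2 change 1.76). Nfkbia, the inhibitor IkBa, had 703, 657 and 696 TPM with LPS, against 37.6, 34.4 and 34.6 TPM with vehicle, a log2 change of 4.23 (SE 0.052, adjusted p = 3.77e-19). Tnfaip3, the ubiquitin-editing inhibitor A20, had 449, 442 and 451 TPM with LPS, against 15.3, 16.2 and 9.48 TPM with vehicle, a log2 change of 4.97 (SE 0.14, adjusted p = 9.9e-15). Nfkbiz, a nuclear IkB that NF-kB needs at secondary genes such as Il6, had 130.3, 120.0 and 128 TPM with LPS, against 3.59, 2.79 and 3.28 TPM with vehicle (log2 change 4.92). In all 3 the lowest LPS library stood far above the highest vehicle library. Of the subunits, Nfkb2 (312, 294 and 315 TPM with LPS, 19.6, 18.5 and 18.6 TPM with vehicle, log2 change 3.95) and Nfkb1 (192, 188 and 193 TPM with LPS, 26.6, 26.2 and 26.8 TPM with vehicle, log2 change 2.80) rose more than Rela (log2 change 0.81). Otud7b, a deubiquitinase of the alternative pathway, fell (log2 change -1.30), and the kinase gene Chuk had 13.1, 13.7 and 13.3 TPM with LPS, against 13.6, 13.9 and 12.3 TPM with vehicle, with overlapping groups and no call (log2 change 0.01, SE 0.092, adjusted p = 0.902).

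Brakes on MAP kinases and on message stability split by member. Of 17 genes 9 rose and 7 fell, and after scaling 10 rose and 4 fell. Dusp2, a nuclear MAP kinase phosphatase, had 50.6, 46 and 51.7 TPM with LPS, against 2.57, 1.96 and 3.03 TPM with vehicle (log2 change 3.85), and Dusp1 had 39.8, 39.5 and 39.9 TPM with LPS, against 14.2, 14 and 15.1 TPM with vehicle (log2 change 1.40). Dusp3, an atypical dual-specificity phosphatase, fell, with 39.7, 40.2 and 38.9 TPM with LPS, against 189.9, 180.4 and 185 TPM with vehicle (log2 change -2.20). Regulators of message decay moved apart as well. Zc3h12a, the endonuclease regnase 1 that degrades cytokine messages, had 109, 105 and 111 TPM with LPS, against 13.4, 13.8 and 13.8 TPM with vehicle (log2 change 2.90). The tristetraprolin family, which binds AU-rich elements, moved apart: Zfp36 had 219.5, 178 and 207 TPM with LPS, against 50, 50.6 and 51.1 TPM with vehicle, a log2 change of 1.97 (SE 0.071, adjusted p = 3.2e-13). Its relative Zfp36l1 had 0.368, 0.306 and 0.467 TPM with LPS, against 15.7, 15.6 and 16.9 TPM with vehicle, a log2 change of -3.63 (SE 0.17, adjusted p = 8.1e-12). Zfp36l2 fell too (16.5, 18.4 and 17 TPM with LPS, 90, 90.3 and 95.5 TPM with vehicle, log2 change -2.35).

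Of 19 immediate early transcription factor genes 11 rose and 7 fell. Ier3, an early gene that modulates survival, had 182, 162 and 199 TPM with LPS, against 7.83, 5.82 and 6.29 TPM with vehicle (log2 change 4.58), and Junb had 206, 189.8 and 221 TPM with LPS, against 60.6, 60.1 and 61.3 TPM with vehicle (log2 change 1.74). At 6 h Fos and Jun were among the members that were lower: Fos had 2.73, 1.91 and 2.72 TPM with LPS, against 31, 27.6 and 29.7 TPM with vehicle, a log2 change of -3.15 (SE 0.11, adjusted p = 1.33e-13), and Jun had 12.9, 10.8 and 11.6 TPM with LPS, against 66.7, 70.3 and 74 TPM with vehicle, a log2 change of -2.48 (SE 0.068, adjusted p = 9.29e-15). Egr2 (log2 change -1.69), Klf10 (log2 change -2.0) and Atf3 (261, 266 and 255 TPM with LPS, 431, 425 and 414 TPM with vehicle, log2 change -0.70) fell as well. Atf3, a stress-inducible repressor, was thus abundant without LPS.

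**Figure D3:**
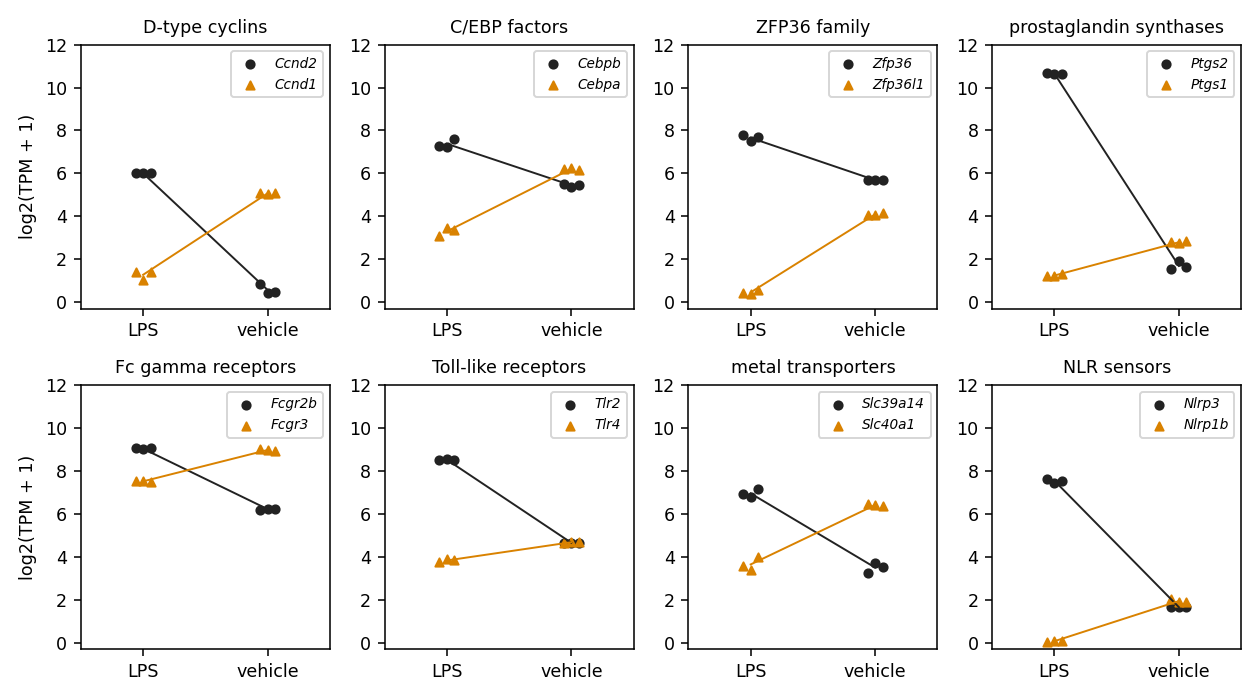
Level of each library in log2(TPM + 1) on the vertical axes for 8 pairs of related genes of which 1 rose and 1 fell after LPS, with 3 LPS points on the left and 3 vehicle points on the right a gene and a line between the group means. In each pair the LPS points lie above the vehicle points for the gene drawn as circles and below them for the gene drawn as triangles, as for Tlr2 and Tlr4 or Zfp36 and Zfp36l1.

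Receptors for chemoattractants and lipid mediators were rebuilt in both directions (11 of 25 rose, 13 fell). Gpr84, a receptor of medium-chain fatty acids, had 242, 203 and 253 TPM with LPS, against 1.49, 1.24 and 1.11 TPM with vehicle, a log2 change of 6.68 (SE 0.092, adjusted p = 1.68e-18). The formyl peptide receptors Fpr2 (296, 281 and 282 TPM with LPS, 3.09, 1.62 and 2.29 TPM with vehicle, log2 change 6.45) and Fpr1 (112, 108 and 115 TPM with LPS, 1.94, 1.48 and 1.23 TPM with vehicle, log2 change 5.47), which sense bacterial N-formyl peptides, rose together. Adora2a, an adenosine receptor that restrains inflammation, had 71.3, 73.3 and 72.4 TPM with LPS, against 0.281, 0.111 and 0.229 TPM with vehicle, a log2 change of 5.93 (SE 0.065, adjusted p = 1.13e-19), and Hcar2, the niacin receptor, rose by 5.41 on the log2 scale. All of these were low in every vehicle library. Cxcr4, the receptor of the marrow retention signal CXCL12, had 2.08, 1.92 and 1.69 TPM with LPS, against 95, 99.2 and 104 TPM with vehicle. S1pr1 (log2 change -2.41) and the ATP receptor P2rx7 (log2 change -2.16) fell. C3ar1, the receptor of complement C3a, fell in these macrophages (152, 156 and 145 TPM with LPS, 377, 375 and 366 TPM with vehicle, log2 change -1.30).

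Most genes of the interferon arm rose. Ifnb1 itself had 9.95, 8.11 and 8.48 TPM in LPS libraries, while each vehicle library listed it at 0. Of 25 interferon, receptor, IRF and STAT genes 17 rose and 6 fell. Irf7, the amplifier of interferon production, had 427, 408 and 423 TPM with LPS, against 11, 11.6 and 12.1 TPM with vehicle, a log2 change of 5.06 (SE 0.092, adjusted p = 5.74e-17). Irf1 had 505, 490.0 and 512 TPM with LPS, against 49.9, 53.5 and 37.3 TPM with vehicle (log2 change 3.41). Stat2, which carries type I interferon signals to the nucleus, rose as well (113, 106 and 106 TPM with LPS, 9.79, 10.5 and 10.4 TPM with vehicle, log2 change 3.29). Jak2 and Socs3 of cytokine receptor signalling rose with them. Jak2, the kinase of the interferon gamma and GM-CSF receptors, had 151, 161 and 147 TPM with LPS, against 8.68, 9.5 and 8.9 TPM with vehicle, a log2 change of 3.94 (SE 0.059, adjusted p = 5.08e-18). Socs3, an inhibitor of cytokine receptor signalling, had 402, 349 and 399 TPM with LPS, against 2.27, 1.03 and 1.02 TPM with vehicle. Members that fell included Irf8, a factor of monocyte development (23.2, 25.7 and 23.6 TPM with LPS, 51.5, 55.3 and 54.2 TPM with vehicle, log2 change -1.12), Irf3 (log2 change -0.68), the receptor gene Ifngr1 (log2 change -0.99) and Stat6 (log2 change -1.11), which carries interleukin 4 signals.

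Of 55 antiviral interferon-stimulated genes 53 were tested, and all 53 rose (median log2 change 3.64, range 0.78 to 8.40). By at least 2-fold 51 of them rose, where 9.84% of all genes did. Ifi205, a PYHIN protein gene, had the largest change, with 929.6, 969 and 887 TPM with LPS, against 1.7, 1.77 and 1.78 TPM with vehicle, a log2 change of 8.40 (SE 0.078, adjusted p = 2.35e-20). Ifit2 had 3672, 4136 and 3383 TPM with LPS, against 21, 18.3 and 16.5 TPM with vehicle (log2 change 7.57) and was the most abundant of those named. Ifit1, whose promoter is printed above, had 1025, 1033 and 974 TPM with LPS, against 3.75, 4.6 and 3.91 TPM with vehicle. Ifit proteins bind foreign RNA ends. Cmpk2 and Rsad2, neighbouring genes that act on antiviral nucleotides, rose alike: Cmpk2 had 1309, 1372 and 1231 TPM with LPS, against 6.07, 5.54 and 5.05 TPM with vehicle (log2 change 7.64), and Rsad2, viperin, had 2127, 2219.9 and 2033 TPM with LPS, against 9.45, 10.7 and 10.4 TPM with vehicle (log2 change 7.57). The groups of both lay far apart. Isg15, a ubiquitin-like modifier, had 2513, 2431 and 2516 TPM with LPS, against 19.1, 20 and 18.1 TPM with vehicle (log2 change 6.95). Usp18, the protease that removes it and blunts the receptor, had 452, 458 and 452 TPM with LPS, against 8.52, 7.14 and 7.71 TPM with vehicle (log2 change 5.70). Members that rose least were Aim2, a DNA sensor of inflammasomes (64.3, 76.8 and 73.3 TPM with LPS, 48, 40.7 and 35.2 TPM with vehicle, log2 change 0.78), and Ifi207 (log2 change 0.89).

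Of 20 interferon-induced GTPases, which attack vacuoles of pathogens, 13 were listed and tested, and all 13 rose (median log2 change 4.73). Gbp2 had 998, 1063 and 1022 TPM with LPS, against 8.84, 8.54 and 9.09 TPM with vehicle (log2 change 6.71), Gbp3 had 499, 528 and 487 TPM with LPS, against 4.45, 3.05 and 3.33 TPM with vehicle (log2 change 6.79) and Irgm1 had 483, 512 and 469.9 TPM with LPS, against 42.6, 45.4 and 46.9 TPM with vehicle (log2 change 3.41). Gbp2b had 916, 913 and 887 TPM with LPS, against 1.4, 1.14 and 1.05 TPM with vehicle (log2 change 8.69). Gbp2 and Gbp2b are related neighbours, and how the counting shared reads between them was not examined. Irgm1 had the highest vehicle level and the smallest log2 change of these 4.

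Most genes of antigen presentation by MHC class I rose. Of 23 genes of class I, the immunoproteasome and peptide loading 20 rose and 3 fell (median log2 change 1.75). The peptide transporter genes rose: Tap1 had 207, 202 and 212 TPM with LPS, against 16.1, 16.7 and 17.4 TPM with vehicle (log2 change 3.55) and Tap2 had 477, 450.1 and 505 TPM with LPS, against 43, 55.9 and 71.1 TPM with vehicle (log2 change 3.08). Nlrc5, the class I transactivator, had 82.8, 79.3 and 76.5 TPM with LPS, against 6.05, 5.21 and 7 TPM with vehicle (log2 change 3.51). The heavy chain H2-K1 had 1231, 1301 and 1273 TPM with LPS, against 765, 782 and 765 TPM with vehicle (log2 change 0.72) and the light chain B2m had 9807, 10287 and 9852 TPM with LPS, against 8293, 8738 and 8589.5 TPM with vehicle (log2 change 0.23). The other classical heavy chain did not follow H2-K1. H2-D1 moved the other way as deposited, with 2947, 3070.4 and 3101 TPM with LPS, against 3403, 3469 and 3511 TPM with vehicle (log2 change -0.19), and was higher after scaling (0.35). The chaperones Calr (log2 change -0.65) and Pdia3 (log2 change -0.77) fell. Of 14 class II and costimulation genes 9 rose and 4 fell, and after scaling 11 rose and 1 fell. Cd40 had 1578, 1518 and 1573 TPM with LPS, against 2.89, 2.01 and 2.74 TPM with vehicle, Cd86 had 22.7, 27.7 and 23.1 TPM with LPS, against 3.69, 3.4 and 2.94 TPM with vehicle (log2 change 2.55) and the class II chain H2-Ab1 had 73.4, 75.8 and 77.6 TPM with LPS, against 16.7, 16.2 and 16.5 TPM with vehicle (log2 change 2.13).

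Constitutive proteasome subunits also leaned upwards against a falling median. Of 31 subunits 20 rose and 8 fell (median log2 change 0.18), and after scaling 30 rose and none of the tested ones fell. Psma6, a ring subunit, had 456, 459 and 445 TPM with LPS, against 118, 117 and 114 TPM with vehicle, a log2 change of 1.95 (SE 0.047, adjusted p = 1.66e-15), and Psma5 had 243, 244 and 238 TPM with LPS, against 93.6, 96.8 and 91.9 TPM with vehicle (log2 change 1.35). Psmd8, a lid subunit, had 239.8, 246 and 237 TPM with LPS, against 341, 368 and 379.5 TPM with vehicle (log2 change -0.59) and was not called after scaling (-0.05).

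**Figure D4:**
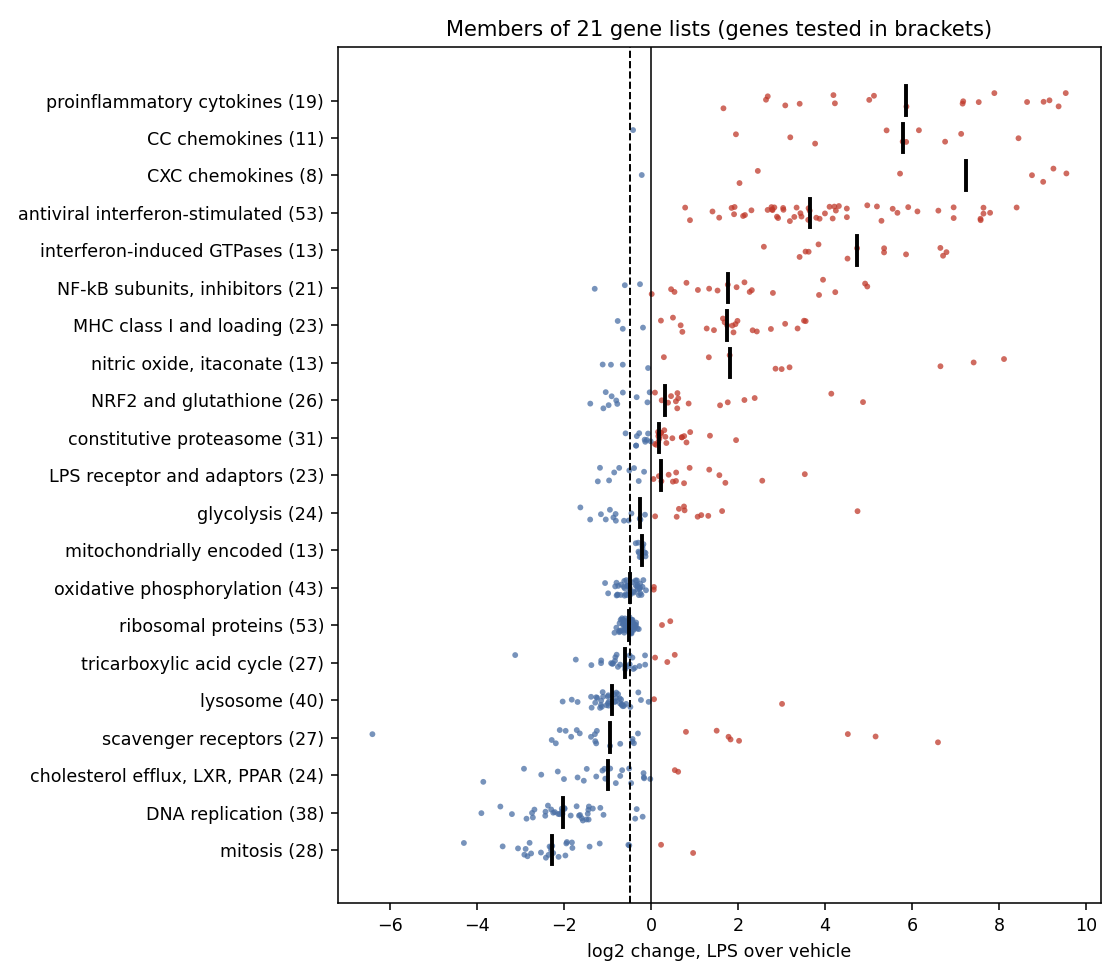
Log2 change, LPS over vehicle, on the horizontal axis for the tested members of 21 gene lists, 1 point a gene with a vertical jitter (red above 0, blue below it, whether called or not), and a black bar at each list's median. The dashed line marks the median of all genes, -0.49; cytokines and antiviral genes lie wholly right of 0, DNA replication genes wholly left of it, and ribosomal protein genes around the line.

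Most enzymes of nitric oxide, arginine and itaconate rose (9 of 13, with 3 lower). Acod1, which makes itaconate from cis-aconitate, had 3867, 3701 and 3756 TPM with LPS, against 12.8, 12.4 and 12.8 TPM with vehicle, a log2 change of 8.11 (SE 0.042, adjusted p = 2.29e-23). Nos2, the inducible nitric oxide synthase, had 228, 226 and 223 TPM with LPS, against 0.374, 0.282 and 0.341 TPM with vehicle. Slc7a2 and Gch1, which supply it, rose too: Slc7a2, the arginine transporter, had 324, 324 and 330.0 TPM with LPS, against 2.23, 2.38 and 2.16 TPM with vehicle, a log2 change of 6.65 (SE 0.12, adjusted p = 3.5e-17), and Gch1, the first enzyme of its cofactor tetrahydrobiopterin, had 188, 198 and 198 TPM with LPS, against 20.1, 24.6 and 26.1 TPM with vehicle (log2 change 3.0). Ass1, which rebuilds arginine from citrulline, had 203, 194 and 204 TPM with LPS, against 54.2, 55.6 and 59.8 TPM with vehicle (log2 change 1.80). The next enzyme of that route, Asl, fell (14.8, 13.7 and 14.5 TPM with LPS, 31.8, 32.3 and 32.4 TPM with vehicle, log2 change -1.11).

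Glycolysis genes moved in both directions. Of 24 genes 9 rose and 14 fell, and after scaling 13 rose and 9 fell. Slc2a6, a sugar transporter of the lysosomal membrane, had 378, 356 and 387 TPM with LPS, against 13, 12.6 and 13.3 TPM with vehicle, a log2 change of 4.74 (SE 0.049, adjusted p = 5.18e-20). Pfkfb3, which makes the activator of phosphofructokinase, had 39.7, 37.8 and 37 TPM with LPS, against 11.3, 11.8 and 11.9 TPM with vehicle (log2 change 1.63), and Hif1a, a regulator of glycolysis genes, had 59.7, 59.8 and 56.6 TPM with LPS, against 22.4, 22.9 and 23.8 TPM with vehicle (log2 change 1.31). Pkm fell (441, 385 and 437 TPM with LPS, 773, 752 and 776 TPM with vehicle, log2 change -0.87). Gapdh, often used as a reference gene, had 960.4, 891 and 939.9 TPM with LPS, against 1094, 1094 and 1160.3 TPM with vehicle (log2 change -0.26) and was higher after scaling (0.28), while Actb was higher in both, with 3276, 2955 and 3313 TPM with LPS, against 2181, 2067 and 2105 TPM with vehicle (log2 change 0.59, scaled 1.12). Pdk1, which blocks pyruvate entry into mitochondria, fell (log2 change -1.63).

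Of 27 genes of the tricarboxylic acid cycle and pyruvate entry 2 rose and 24 fell, and after scaling 7 rose and 14 fell. Idh1, the cytosolic isocitrate dehydrogenase, fell furthest, with 91.5, 50.6 and 105 TPM with LPS, against 646, 805 and 645 TPM with vehicle, a log2 change of -3.12 (SE 0.26, adjusted p = 1.15e-08). The LPS libraries of Idh1 spread widely and still lay far below the vehicle libraries. Idh2, its mitochondrial relative, had 10.5, 9.9 and 8.64 TPM with LPS, against 37.1, 33.2 and 33 TPM with vehicle (log2 change -1.73). The members that rose were Dld (64.2, 68.3 and 65.7 TPM with LPS, 46.3, 44.7 and 44.1 TPM with vehicle, log2 change 0.54), a shared subunit of the dehydrogenase complexes, and citrate synthase, Cs (log2 change 0.37).

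Nuclear-encoded oxidative phosphorylation genes moved with the median and not beyond it: 41 of 43 fell and 1 rose, with a list median of -0.49 equal to that of all genes, and after scaling 18 rose and 9 fell. Of 13 mitochondrially encoded messages 3 fell and 10 were not called, and after scaling 10 rose. Cytosolic ribosomal proteins were alike: 51 of 53 fell and 2 rose (median -0.51), and after scaling 9 rose and 9 fell. Their range was narrow, -0.84 to 0.44. Rps29 had 3481, 3464 and 3774 TPM with LPS, against 5696, 5518 and 5596 TPM with vehicle (log2 change -0.65, scaled -0.11 and not called), and Rpl24 was among those that rose (log2 change 0.44). Of 27 ribosome biogenesis genes 5 rose and 13 fell, and after scaling 16 rose and 4 fell.

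Enzymes of lipid mediators were rearranged. Ptgs2, the inducible cyclooxygenase, had 1634, 1577 and 1591 TPM with LPS, against 1.9, 2.79 and 2.09 TPM with vehicle, while the constitutive Ptgs1 had 1.3, 1.32 and 1.5 TPM with LPS, against 5.96, 5.75 and 6.16 TPM with vehicle, a log2 change of -1.55 (SE 0.082, adjusted p = 3.48e-11). Ptges, which makes prostaglandin E2 from their product, had 218, 189.5 and 209 TPM with LPS, against 3.1, 3.78 and 4.56 TPM with vehicle, a log2 change of 5.43 (SE 0.13, adjusted p = 1.34e-15). The enzymes that take the same product elsewhere fell: Hpgds, of prostaglandin D2, had 27.9, 27.9 and 26.1 TPM with LPS, against 149, 153 and 147 TPM with vehicle (log2 change -2.42), and Tbxas1, of thromboxane, had 22.5, 19.9 and 22.6 TPM with LPS, against 75.1, 71.6 and 67.2 TPM with vehicle (log2 change -1.68). The leukotriene genes Alox5ap (122, 121 and 127 TPM with LPS, 364, 356 and 345 TPM with vehicle, log2 change -1.52) and Lta4h (9.93, 8.9 and 10.6 TPM with LPS, 33, 35.2 and 36.6 TPM with vehicle, log2 change -1.74) fell as well. Ch25h, which makes an oxysterol that restrains viruses and sterol synthesis, had 19.1, 19.9 and 22.7 TPM with LPS, against 0.0452, 0.313 and 0.191 TPM with vehicle (log2 change 4.19). Of the 12 genes of this list 5 rose and 7 fell, and after scaling 5 rose and 5 fell.

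Most genes of lipid storage and efflux fell. Of 24 genes of cholesterol efflux and of LXR or PPAR targets 2 rose and 21 fell (median -1.0), and after scaling 6 rose and 16 fell. Pparg, the nuclear receptor of fatty acid storage, had 1.43, 1.08 and 1.49 TPM with LPS, against 32.2, 34 and 32 TPM with vehicle, and its target Fabp4, a fatty acid carrier, had 82.9, 83.1 and 78 TPM with LPS, against 621, 654 and 596 TPM with vehicle, a log2 change of -2.92 (SE 0.052, adjusted p = 4.74e-17). Fabp5, a carrier of the same family, had 2613, 2819.8 and 2640.1 TPM with LPS, against 6373, 6537 and 6443 TPM with vehicle (log2 change -1.26). Plin2, the coat of lipid droplets, had 316, 285 and 314 TPM with LPS, against 1282, 1200.1 and 1193 TPM with vehicle (log2 change -2.0). Soat1 and Lipa of cholesterol ester turnover both fell. Soat1, which esterifies cholesterol for storage, had 39, 42.4 and 40.6 TPM with LPS, against 232, 245 and 239.5 TPM with vehicle (log2 change -2.53), and Lipa, the lysosomal lipase that frees it, had 381, 389 and 369 TPM with LPS, against 1219.8, 1251 and 1214 TPM with vehicle (log2 change -1.69). The exporters moved apart, as Abcg1 had 21.6, 21.1 and 23.1 TPM with LPS, against 102, 98.8 and 100.2 TPM with vehicle (log2 change -2.15) and Abca1 had 19, 20.9 and 20.5 TPM with LPS, against 12.3, 14.3 and 11.7 TPM with vehicle (log2 change 0.62). The other gene that rose was Nr1h3, which encodes LXR alpha (log2 change 0.54). Of 18 sterol synthesis genes 4 rose and 10 fell, and after scaling 7 rose and 6 fell.

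Iron and zinc genes moved in both directions. Slc39a14, an importer of zinc and free iron, had 119, 111 and 142 TPM with LPS, against 8.48, 12.4 and 10.6 TPM with vehicle, a log2 change of 3.45 (SE 0.19, adjusted p = 4.63e-11). Slc40a1, ferroportin, the exporter of iron, had 10.8, 9.45 and 15.1 TPM with LPS, against 88, 83.6 and 81.8 TPM with vehicle, a log2 change of -2.77 (SE 0.19, adjusted p = 7.29e-10). Lcn2, which binds bacterial siderophores, had 125, 104 and 114 TPM with LPS, against 2.49, 1.76 and 2.11 TPM with vehicle, a log2 change of 5.21 (SE 0.10, adjusted p = 1.24e-16). None of these 3 overlapped between groups. Cp, the ferroxidase ceruloplasmin, had 46.8, 52.7 and 51.1 TPM with LPS, against 0.904, 0.663 and 0.804 TPM with vehicle (log2 change 4.84). Steap3, an iron reductase of endosomes, had 3.51, 3.36 and 3.13 TPM with LPS, against 38.8, 40.1 and 43.1 TPM with vehicle (log2 change -3.27), and Tfrc, the transferrin receptor, had 14.9, 16.6 and 14.9 TPM with LPS, against 48.9, 50.4 and 50.1 TPM with vehicle (log2 change -1.63). Ftl1, ferritin light chain, was among the 10 largest losses in TPM (11556, 10892 and 12241 TPM with LPS, 21799, 21396 and 22451 TPM with vehicle, log2 change -0.92). Of the 20 iron and zinc genes 9 rose and 8 fell, and after scaling 13 rose and 6 fell.

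Redox genes rose in part. Of 26 NRF2 and glutathione genes 15 rose and 9 fell, and after scaling 18 rose and 6 fell. Slc7a11, the cystine importer, had 242, 240.0 and 242 TPM with LPS, against 6.73, 6.98 and 8.23 TPM with vehicle, a log2 change of 4.87 (SE 0.14, adjusted p = 1.35e-14). Sod2, mitochondrial superoxide dismutase, had 1313, 1295 and 1329 TPM with LPS, against 72.6, 73.1 and 74.6 TPM with vehicle, a log2 change of 4.14 (SE 0.028, adjusted p = 7.45e-22). LPS libraries of each agreed closely. Txnrd1, thioredoxin reductase, had 278, 261 and 273 TPM with LPS, against 61.9, 60.5 and 59.1 TPM with vehicle (log2 change 2.14), and Hmox1, haem oxygenase, had 498, 426 and 486 TPM with LPS, against 312, 308 and 304 TPM with vehicle (log2 change 0.60). The peroxide-removing enzymes Gpx1 (566, 521 and 567 TPM with LPS, 1471, 1418 and 1476 TPM with vehicle, log2 change -1.40) and Cat (log2 change -1.10) fell. Of 8 NADPH oxidase genes 4 rose and 3 fell, and after scaling 7 rose; the catalytic subunit Cybb had 1089.9, 1236 and 1127 TPM with LPS, against 434, 471 and 448 TPM with vehicle (log2 change 1.35), and Cd38, which consumes NAD, had 169, 169 and 171 TPM with LPS, against 4.81, 4.09 and 4.6 TPM with vehicle (log2 change 4.96). Of 21 genes of the endoplasmic reticulum stress response and the integrated stress response 4 rose and 15 fell, where 20.6% of all genes rose and 64.7% fell. After scaling 7 of the 21 rose and 11 fell. Ddit3, the stress factor CHOP, had 15.1, 15.8 and 15 TPM with LPS, against 52.6, 44.8 and 51.3 TPM with vehicle (log2 change -1.63), while Ppp1r15a, which restores translation, had 104, 98.4 and 102 TPM with LPS, against 20.1, 21.6 and 21.4 TPM with vehicle (log2 change 2.22).

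Of 32 inflammasome and cell death genes 16 rose and 8 fell, and after scaling 24 rose and 4 fell. Nlrp3, the sensor that LPS primes, had 198, 175 and 186 TPM with LPS, against 2.15, 2.17 and 2.17 TPM with vehicle, a log2 change of 5.88 (SE 0.06, adjusted p = 4.96e-20). Nlrp1b, another sensor, had 0.0324, 0.0545 and 0.0782 TPM with LPS, against 3.13, 2.7 and 2.75 TPM with vehicle (log2 change -1.87), and Pycard, the adaptor ASC, had 40.2, 37.2 and 39.5 TPM with LPS, against 113, 112 and 109 TPM with vehicle (log2 change -1.49). Nlrp3 and Nlrp1b thus moved oppositely, with other sensor genes between them, such as Mefv (log2 change 2.02), Naip2 (0.09) and Naip5 (-0.73). Casp4, known as caspase 11, which binds LPS in the cytosol, had 183, 191 and 175 TPM with LPS, against 27, 27.4 and 24 TPM with vehicle (log2 change 2.77). Mlkl, the executor of necroptosis, had 99.6, 106 and 96.2 TPM with LPS, against 7.48, 8.68 and 6.64 TPM with vehicle (log2 change 3.57). Cflar, the inhibitor of caspase 8, had 408, 417 and 401 TPM with LPS, against 21, 22.5 and 23.7 TPM with vehicle, a log2 change of 4.13 (SE 0.10, adjusted p = 1.15e-15). Bcl2a1d had 1335, 1242 and 1284 TPM with LPS, against 54.9, 53.7 and 59.1 TPM with vehicle (log2 change 4.50), though its near-identical copies make the split of its reads uncertain.

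Complement and coagulation genes split by member (11 of 22 each way, after scaling 11 higher and 7 lower). Serpinb2, an inhibitor of plasminogen activators, had 158, 134 and 153 TPM with LPS, against 0.258, 0.199 and 0.216 TPM with vehicle, a log2 change of 6.93 (SE 0.08, adjusted p = 2.11e-19). Complement C3 had 203, 194 and 194 TPM with LPS, against 11, 12.2 and 11.6 TPM with vehicle (log2 change 3.97) and factor B, Cfb, had 89.8, 91.9 and 95.8 TPM with LPS, against 0.524, 0.406 and 0.7 TPM with vehicle, a log2 change of 5.92 (SE 0.13, adjusted p = 5.34e-16). Coagulation factor X, F10, had 449.7, 449 and 464 TPM with LPS, against 22.4, 23.4 and 22.9 TPM with vehicle, a log2 change of 4.25 (SE 0.039, adjusted p = 2.25e-20). The chains of C1q, which starts the classical complement pathway, moved the other way. They fell, and of them C1qb had 634, 597 and 629 TPM with LPS, against 1060.4, 1033 and 1029 TPM with vehicle (log2 change -0.75) and C1qc had 432, 403 and 422 TPM with LPS, against 783, 753 and 751 TPM with vehicle (log2 change -0.86). Cd93 (11.9, 12.1 and 10.9 TPM with LPS, 76, 83.5 and 83 TPM with vehicle, log2 change -2.70) and Thbd, thrombomodulin (0.02, 0.0368 and 0.0567 TPM with LPS, 4.38, 4.07 and 4.45 TPM with vehicle, log2 change -2.35), were lower after LPS.

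Of 33 adhesion, matrix and protease genes 19 rose and 12 fell, and after scaling 22 rose and 8 fell. Icam1, the ligand of leukocyte integrins, had 681, 656 and 687 TPM with LPS, against 37.2, 37 and 37.9 TPM with vehicle, a log2 change of 4.14 (SE 0.041, adjusted p = 3.73e-20). Mmp13, a collagenase, had 663, 574 and 608 TPM with LPS, against 5.54, 5.17 and 5.34 TPM with vehicle, a log2 change of 6.60 (SE 0.066, adjusted p = 3.73e-20). Vcam1 had 20.6, 18.9 and 20.6 TPM with LPS, against 0.108, 0.119 and 0.0279 TPM with vehicle (log2 change 4.28). Itgb3, an integrin chain of osteoclasts, had 3.73, 4.61 and 4.2 TPM with LPS, against 28.2, 34.4 and 32.8 TPM with vehicle (log2 change -2.66), and Adam8 had 61.7, 54.9 and 56.1 TPM with LPS, against 309.8, 260.1 and 267 TPM with vehicle (log2 change -2.25).

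Scavenger and efferocytosis receptors moved in both directions, with 8 of 27 higher and 18 lower (median -0.95; after scaling 11 higher and 14 lower). Cd300lb, an activating receptor of the CD300 family that lies at chr11:114922781-114934386 on the minus strand of GRCm38, had the largest fall of all genes under the naming rule, with 1.81, 1.01 and 1.38 TPM with LPS, against 203, 205 and 195 TPM with vehicle. Marco, a receptor of bacteria, had 138, 126 and 139 TPM with LPS, against 2.69, 2.75 and 2.92 TPM with vehicle, a log2 change of 5.16 (SE 0.071, adjusted p = 1.63e-18). Olr1, a receptor of oxidised LDL, had 32.2, 31.6 and 32.3 TPM with LPS, against 0.418, 0.191 and 0.769 TPM with vehicle (log2 change 4.52), and Msr1 had 454, 439 and 439 TPM with LPS, against 131, 129 and 126 TPM with vehicle (log2 change 1.78). Receptors and bridges of apoptotic cell uptake moved apart: the receptor gene Axl rose (log2 change 2.02), while Gas6, Lrp1 and Stab1 fell. Gas6, a bridge to Axl and MerTK, had 31.5, 30.5 and 31 TPM with LPS, against 154, 156 and 156 TPM with vehicle, a log2 change of -2.29 (SE 0.045, adjusted p = 1.5e-16). The receptor gene Mertk changed less (log2 change -0.30). Lrp1 had 10.2, 11 and 11.3 TPM with LPS, against 43.5, 67 and 50.8 TPM with vehicle (log2 change -2.19) and Stab1 had 15.8, 10.4 and 13.2 TPM with LPS, against 58.8, 53.3 and 48.8 TPM with vehicle (log2 change -1.97). Mrc1, the mannose receptor, had 20.8, 20.3 and 20 TPM with LPS, against 50.3, 52.9 and 50.9 TPM with vehicle (log2 change -1.29).

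Of the Fc gamma receptors, Fcgr2b and Fcgr1 rose, Fcgr3 fell and Fcgr4 changed little as deposited (log2 change 0.07). Fcgr2b, the inhibitory receptor, had 534, 512 and 529 TPM with LPS, against 72.8, 74.3 and 74.6 TPM with vehicle, a log2 change of 2.81 (SE 0.038, adjusted p = 1.43e-18). Fcgr3, an activating receptor, had 182, 185 and 180.3 TPM with LPS, against 515, 502 and 495 TPM with vehicle, a log2 change of -1.46 (SE 0.045, adjusted p = 3.75e-14). Fcgr1, an activating receptor of high affinity, rose like the inhibitory one, with 94.3, 95.1 and 89.4 TPM with LPS, against 41, 36.4 and 35.8 TPM with vehicle (log2 change 1.28). Vehicle libraries held more Fcgr3 than Fcgr2b and LPS libraries more Fcgr2b than Fcgr3. Fcer1g, the shared signalling chain, had 3888, 4002 and 3955 TPM with LPS, against 3168, 3227 and 3164 TPM with vehicle (log2 change 0.31). Inpp5d, the phosphatase SHIP1 that acts below the inhibitory receptor, had 5.68, 4.27 and 4.82 TPM with LPS, against 47.7, 50.5 and 46.8 TPM with vehicle (log2 change -3.06). Of the 15 genes of this list 7 rose and 7 fell, and after scaling 9 rose and 5 fell. Tyrobp, an adaptor of activating receptors, had 114, 108 and 79 TPM with LPS, against 292, 353 and 338 TPM with vehicle (log2 change -1.71). It was not called (SE 1.13, adjusted p = 0.168), although its groups did not overlap. That SE pools the spread of all groups of the marrow experiment. When limma was fitted to the LPS and vehicle libraries alone, Tyrobp was called lower (log2 change -1.71, adjusted p = 1.7e-05).

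Factors of macrophage identity split as well (8 of 20 higher and 11 lower, after scaling 9 higher and 8 lower). Tfeb, which drives lysosome genes, had 3.83, 3.03 and 3.65 TPM with LPS, against 35.2, 32.9 and 33.7 TPM with vehicle, a log2 change of -2.96 (SE 0.10, adjusted p = 1.47e-13). The C/EBP factors moved apart: Cebpa had 7.44, 9.89 and 9.43 TPM with LPS, against 74, 76.2 and 69.7 TPM with vehicle (log2 change -2.91), while Cebpb had 156, 150.0 and 193 TPM with LPS, against 44.6, 40.7 and 42.6 TPM with vehicle (log2 change 1.93). Csf1r, the M-CSF receptor, had 194, 186 and 197 TPM with LPS, against 401, 407 and 404 TPM with vehicle (log2 change -1.07). Spi1, which encodes PU.1, had 416, 396 and 414 TPM with LPS, against 282, 279 and 298 TPM with vehicle (log2 change 0.51), and Batf2 had 60.8, 56.3 and 58.1 TPM with LPS, against 2.37, 2.1 and 1.84 TPM with vehicle (log2 change 4.26). Adgre1, which encodes the macrophage marker F4/80, rose, with 668, 643 and 639.7 TPM with LPS, against 301, 298 and 289 TPM with vehicle (log2 change 1.13).

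Of 40 lysosomal genes 37 fell and 1 rose (median -0.91), and after scaling 32 fell and 5 rose. They held 3.21%, 3.28% and 3.23% of the listed TPM with LPS, against 6.28%, 6.42% and 6.45% with vehicle. The protease gene Ctsd had 6655, 6988 and 6726 TPM with LPS, against 14462, 14647 and 14701 TPM with vehicle, a log2 change of -1.10 (SE 0.031, adjusted p = 1.09e-14), and Psap, the precursor of saposins, had 3659, 3780.0 and 3727 TPM with LPS, against 8010.0, 8238 and 8242 TPM with vehicle, a log2 change of -1.13 (SE 0.029, adjusted p = 4.36e-15). Ctsb (log2 change -0.80), Ctss (log2 change -0.69) and Lgmn (log2 change -1.28) fell too, and Ctsz had 1304, 1280.0 and 1305 TPM with LPS, against 1316, 1354 and 1378 TPM with vehicle and was not called (log2 change -0.06, scaled 0.48 and called). The proton pump subunit Atp6v0d2 had 189.7, 211 and 181 TPM with LPS, against 786, 807 and 797 TPM with vehicle (log2 change -2.03). The member that rose was Ctsc, which activates granule serine proteases, with 349, 372 and 363 TPM with LPS, against 43.2, 44.1 and 44.8 TPM with vehicle, a log2 change of 3.01 (SE 0.035, adjusted p = 2.18e-19). Lgals3 (3929, 3762 and 3814 TPM with LPS, 9149, 9333 and 9452 TPM with vehicle, log2 change -1.28) and Gpnmb (6230.1, 6460.4 and 6226 TPM with LPS, 11233, 11786 and 11825 TPM with vehicle, log2 change -0.88), a lectin and a glycoprotein of lipid-laden macrophages, were among the largest losses in TPM.

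The 12 largest falls under the naming rule were led by genes of varied roles. St6gal1, a sialyltransferase, had 0.134, 0.146 and 0.209 TPM with LPS, against 51.6, 24 and 48.7 TPM with vehicle (log2 change -5.12), with 1 vehicle library well below the other two. Sesn1, an inhibitor of mTORC1, had 1.26, 1.41 and 1.43 TPM with LPS, against 52.3, 54.1 and 49 TPM with vehicle, a log2 change of -4.48 (SE 0.077, adjusted p = 2.82e-17). Mtss1, a membrane curvature protein, had 1.34, 1.4 and 1.25 TPM with LPS, against 46.4, 50.8 and 49.4 TPM with vehicle (log2 change -4.42). Vehicle libraries held all of them at clear levels. Cnr2, the cannabinoid receptor of immune cells, had 0.099, 0.0608 and 0.19 TPM with LPS, against 20.7, 20.1 and 20.4 TPM with vehicle, a log2 change of -4.26 (SE 0.074, adjusted p = 3e-17), and Rab7b, a small GTPase that sends TLR4 to lysosomes, had 10.8, 13.9 and 13.1 TPM with LPS, against 276, 289 and 269.8 TPM with vehicle, a log2 change of -4.36 (SE 0.092, adjusted p = 3.34e-16). Susd3 (log2 change -4.39) and Rab3il1 (log2 change -4.25) completed the group with Tsc22d3, the glucocorticoid-induced leucine zipper, which had 1.96, 1.35 and 2.74 TPM with LPS, against 95.5, 95.5 and 97.4 TPM with vehicle, with Cxcr4, named above, and with the cell cycle genes Gmnn and Cenpa. Of 15 genes of the glucocorticoid receptor and its targets 4 rose and 8 fell, and after scaling 7 rose and 5 fell; the receptor gene Nr3c1 had 51.1, 64.6 and 70.3 TPM with LPS, against 25.5, 33.9 and 16.3 TPM with vehicle (log2 change 1.31).

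Proliferation genes fell together. Of 38 DNA replication genes 37 fell and none rose (median -2.02), 35 of them by at least 2-fold, where 25.4% of all genes did. Of 28 mitosis genes 26 fell and 2 rose (median -2.29). Cdk1, the mitotic kinase whose promoter is printed above, had 4.37, 4.13 and 4.2 TPM with LPS, against 36.8, 34.2 and 35 TPM with vehicle, a log2 change of -2.79 (SE 0.09, adjusted p = 6.43e-14). Top2a, which untangles sister chromatids, had 0.715, 0.737 and 0.714 TPM with LPS, against 14.3, 13.2 and 12.7 TPM with vehicle, a log2 change of -3.06 (SE 0.067, adjusted p = 5.74e-16). Pcna, the sliding clamp, stayed at a high level for this list, with 153, 150.2 and 153 TPM with LPS, against 420.4, 410.1 and 412 TPM with vehicle, a log2 change of -1.44 (SE 0.027, adjusted p = 9.82e-17). Its LPS libraries stayed above those of all other named members. Gmnn, the licensing inhibitor geminin, had 1.01, 2.23 and 1.18 TPM with LPS, against 48.5, 42.9 and 42 TPM with vehicle (log2 change -4.23), and Cenpa, the centromeric histone, had 2.16, 1.05 and 4.2 TPM with LPS, against 69.5, 60.8 and 58.7 TPM with vehicle. The members that rose were Mki67 (15.5, 14.8 and 15.1 TPM with LPS, 7.32, 7.95 and 6.58 TPM with vehicle, log2 change 0.96) and Mad2l1 (22.3, 22.5 and 23.2 TPM with LPS, 21.7, 17.3 and 18.8 TPM with vehicle, log2 change 0.23, SE 0.083, adjusted p = 0.0179); the call of Mad2l1 was lost without any of LPS replicate 3, vehicle replicate 2 or vehicle replicate 3 (adjusted p = 0.0521, 0.104 and 0.0504).

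Among cyclins, E2F factors and CDK inhibitors 8 of 23 rose and 13 fell. Ccnd1 and Ccnd2, D-type cyclins that act on the same kinases, moved oppositely. Ccnd2 had 62.9, 63.6 and 63.3 TPM with LPS, against 0.785, 0.338 and 0.391 TPM with vehicle, a log2 change of 5.43 (SE 0.13, adjusted p = 1.38e-15). Ccnd1 had 1.63, 1.05 and 1.67 TPM with LPS, against 32.5, 32.4 and 32.9 TPM with vehicle, a log2 change of -3.79 (SE 0.10, adjusted p = 3.66e-15). The cyclin D message of vehicle libraries was thus nearly all Ccnd1 of these 2, and that of LPS libraries nearly all Ccnd2. Cdkn1a, the CDK inhibitor p21, had 1955, 1826 and 1952 TPM with LPS, against 169, 152 and 153 TPM with vehicle, a log2 change of 3.59 (SE 0.057, adjusted p = 9.3e-18), while Cdkn2c, p18, had 1.14, 1.11 and 1.36 TPM with LPS, against 23.7, 23.3 and 23.6 TPM with vehicle (log2 change -3.48). Ccna2, cyclin A2, was listed at 0 in 2 LPS libraries, with 0.0766, 0 and 0 TPM with LPS, against 12.7, 6.37 and 11.8 TPM with vehicle.

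Of 12 circadian clock genes 2 rose and 10 fell, and after scaling 3 rose and 7 fell; Bhlhe40, a clock-linked repressor, had 9.29, 9.83 and 10.3 TPM with LPS, against 55.2, 64.4 and 55.8 TPM with vehicle (log2 change -2.46). Of 20 genes of COMPASS, whose complexes methylate histone H3 lysine 4, and of histone demethylases 2 rose and 12 fell. After scaling 7 rose and 4 fell. The demethylase genes in this list were Kdm5a, Kdm5b, Kdm5c, Kdm6a and Kdm6b. Its counts are thus not those of the methylating complexes alone. Setd1b had 5.46, 5.36 and 8.53 TPM with LPS, against 3.8, 5.13 and 4.7 TPM with vehicle and was not called (log2 change 0.41, SE 0.21, adjusted p = 0.0838). Setd1a had 5.95, 7.84 and 6.11 TPM with LPS, against 8.47, 8.1 and 8.66 TPM with vehicle and was not called either (log2 change -0.31, SE 0.19, adjusted p = 0.13). The shared subunit Dpy30 fell (31.6, 32 and 30.8 TPM with LPS, 79, 73.4 and 68.9 TPM with vehicle, log2 change -1.20), and the H3 lysine 27 demethylase Kdm6b, a known LPS target, rose (5.32, 4.55 and 5 TPM with LPS, 1.74, 1.61 and 1.94 TPM with vehicle, log2 change 1.11).

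Few genes were switched in full. Of all listed genes 8 were at 0 TPM in all 3 vehicle libraries, and 3 of these had at least 5 TPM in each LPS library, namely Ifnb1, Ccl17 and U90926, which had 22, 22.6 and 28.6 TPM with LPS. No gene was at 0 TPM in all 3 LPS libraries. With under 1 TPM as the limit instead of 0, 75 genes passed from vehicle to at least 5 TPM in every LPS library, and 87 stood under 1 TPM in every LPS library against at least 5 TPM in every vehicle library.

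The LPS response of Setd1bKO macrophages, which carry the label Setd1bKO and had the same treatments in the same experiment, shares no library with the one above. Of the 901 genes higher by at least 2-fold in control macrophages, 825 were so in Setd1bKO macrophages (91.6% of the control list and 85.3% of the 967 of Setd1bKO). Of the 2329 lower by at least 2-fold in control macrophages 1799 were so (77.2% of the control list and 91.3% of the 1970 of Setd1bKO). Pearson's r of the log2 changes across the 9159 genes was 0.964; genes are not independent replicates. The test of the difference itself, control minus Setd1bKO, called 497 genes positive (5.43%) and 1503 negative (16.4%); after scaling, 938 were positive and 783 negative.

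The 4 largest positive differences were those of Lipg, Cp, Ptges and Hspa1b. Lipg, endothelial lipase, had a log2 change of 3.86 in control macrophages and 0.99 in Setd1bKO macrophages (difference 2.87, SE 0.12, adjusted p = 1.01e-09). Cp had a log2 change of 4.84 in control macrophages and 2.24 in Setd1bKO macrophages (difference 2.60, SE 0.35, adjusted p = 7.5e-05). Ptges had one of 5.43 in control macrophages and 3.31 in Setd1bKO macrophages (difference 2.12, SE 0.18, adjusted p = 8.67e-07). Hspa1b, an inducible HSP70, had one of 3.25 in control macrophages and 1.14 in Setd1bKO macrophages (difference 2.11, SE 0.18, adjusted p = 9.9e-07). The control response was the larger in all 4. The 4 largest negative differences were those of Csf2, Adm, Phlda1 and Il23a. Csf2 had a log2 change of 5.01 in control macrophages and 7.93 in Setd1bKO macrophages (difference -2.92, SE 0.17, adjusted p = 2.55e-08). Adm, the vasodilator adrenomedullin, had one of 3.42 in control macrophages and 6.24 in Setd1bKO macrophages (difference -2.82, SE 0.23, adjusted p = 4.66e-07). Phlda1 had a log2 change of 2.46 in control macrophages and 5.17 in Setd1bKO macrophages (difference -2.71, SE 0.19, adjusted p = 1.55e-07). Il23a had one of 4.19 in control macrophages and 6.73 in Setd1bKO macrophages (difference -2.54, SE 0.12, adjusted p = 1.67e-09). The Setd1bKO response was the larger in these 4. Mki67, one of the 2 mitosis genes that rose, had a log2 change of 0.96 in control macrophages and 3.26 in Setd1bKO macrophages (difference -2.29, SE 0.15, adjusted p = 5.82e-08).

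RAW264.7 is a mouse macrophage-like line from a BALB/c tumour. Its wild-type cells received the same ethanol time, LPS dose and LPS time, in another table that was normalised on its own, so values stand side by side with no test between them. Of the 683 genes higher by at least 2-fold in control macrophages and tested in both tables, 331 were so in RAW264.7 (48.5% of the control list and 69.5% of the 476 of RAW264.7). Of 2037 lower by at least 2-fold, 857 were so (42.1% of the control list and 70.1% of the 1223 of RAW264.7). Pearson's r across the 8283 genes was 0.728. With at least 2-fold in each, 20 genes were lower in control macrophages and higher in RAW264.7, and 33 were higher in control macrophages and lower in RAW264.7. The first kind held Dhrs3, a retinaldehyde reductase, with 15.9, 17.4 and 15.3 TPM with LPS, against 279, 275 and 275 TPM with vehicle in control macrophages (log2 change -4.01, against 2.06 in RAW264.7). Fos (-3.15 in control macrophages, 1.97 in RAW264.7), Fabp4 (-2.92 and 1.96 in the same order), C3ar1 (-1.30 and 2.75) and Irf8 (-1.12 and 1.57) belonged to it too. The other kind held Cst7, a cystatin, with 73.9, 71.2 and 76.5 TPM with LPS, against 2.05, 3 and 2.27 TPM with vehicle in control macrophages (log2 change 4.45, against -1.23 in RAW264.7). Cd300lb, the largest fall in control macrophages, changed by -0.66 in RAW264.7.

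**Figure D5:**
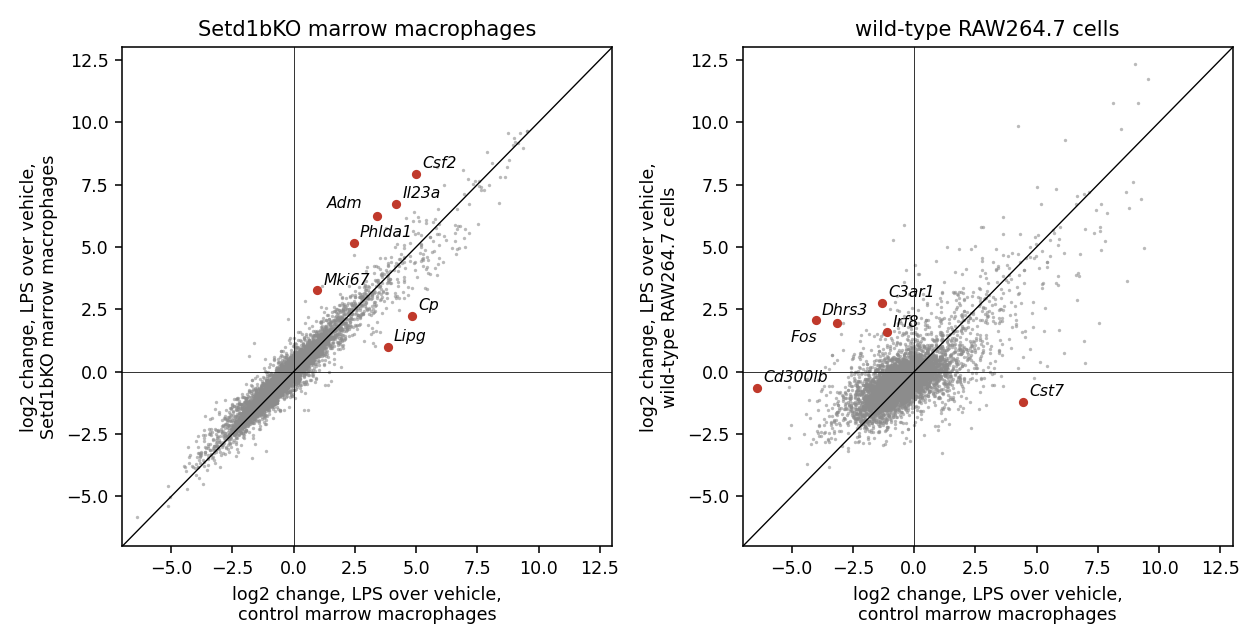
Log2 change, LPS over vehicle, in control macrophages on the horizontal axes against that in Setd1bKO macrophages (left) and in wild-type RAW264.7 cells (right) on the vertical axes, 1 point a gene, with the line of equal change. Points lie close to the line on the left, with Csf2 above it and Lipg below it, and spread widely on the right, where Fos and Dhrs3 stand at opposite signs.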

How the data were processed

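Polyadenylated RNA (500 ng a library) was sequenced as stranded TruSeq libraries, per the labels' protocols. The authors deposited TPM per gene; Salmon 0.10.2, DESeq2, R 3.6.0 and the builds GRCm38.p6 and mm10 are named, per the submitters' processing notes, with no role given. TPM keep no depth, so no count test or counting interval could be used. Log2(TPM + 1) of genes that reached 1 TPM in 3 or more of the 18 marrow libraries was fitted with limma 3.58.1 (R 4.3.3; empirical Bayes with trend, 1 mean a group over 6 groups, two-sided) and adjusted by Benjamini-Hochberg over all 9159 genes; a gene was called at adjusted p under 0.05. Fold changes on this scale understate the change of low genes. RAW264.7 libraries were fitted alike in their own table. The fit was tested on simulated data before use.

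The groups and the 50 gene lists (7 of them of cell type markers) were chosen with earlier results of these data known. Named genes are the 12 highest and 12 lowest changes, the 10 largest gains and losses in TPM, up to 8 called, 3 most abundant and 3 uncalled members of a list, the 4 largest differences from Setd1bKO each way, and a few of general interest. Some genes that these rules pick are not reported here. A further 33 genes (Ccl9, Ccl6, Rela, Otud7b, Dusp1, S1pr1, P2rx7, Irf3, Ifngr1, Stat6, Aim2, Ifi207, Calr, Pdia3, Asl, Pkm, Dld, Cs, Abca1, Nr1h3, Hmox1, Pycard, Nlrp1b, Itgb3, Adam8, Stab1, Msr1, Mki67, Rpl24, Dhrs3, Cst7, Ddx3y and Eif2s3y) were chosen after their values were seen. Alternatives were a pseudocount of 0.1 TPM, no filter, median-of-ratios scaling, a replicate block, LPS and vehicle libraries fitted without the other groups, and leaving out each library. Gene positions are from GENCODE vM21, which matched 9176 of 9179 listed genes.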

Additional observations from a re-analysis of the deposited data

Results flagged for a closer look

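The LPS response differed between control and Setd1bKO macrophages in 497 genes with a larger value in control and 1503 with a smaller one, by the test of the difference itself. The 4 largest positive differences, control minus Setd1bKO on the log2 scale, were 2.87 for Lipg, 2.60 for Cp, 2.12 for Ptges and 2.11 for Hspa1b. The 4 largest negative ones were -2.92 for Csf2, -2.82 for Adm, -2.71 for Phlda1 and -2.54 for Il23a. Control macrophages and RAW264.7 cells moved oppositely by at least 2-fold in 20 genes that were lower in control macrophages and in 33 that were higher there; as the 2 tables were normalised separately, these differences were not tested.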

How the results depend on the processing

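The replicate numbers do not pair the libraries: deviations of same-numbered LPS and vehicle libraries from their group means correlated at 0.00094, 0.01 and -0.02. With the replicate block 1889 genes were higher and 5925 lower, and the difference from Setd1bKO was called in 487 and 1485 genes; Ctsz and Setd1b passed the threshold under it.

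Median-of-ratios scaling moved every count: 3564 genes were higher and 3556 lower, 1355 and 1118 of them by at least 2-fold, and the difference from Setd1bKO was positive in 938 and negative in 783. Under it 8 named genes had the opposite sign, namely Ccl6 (0.12), Pf4 (0.32), H2-D1 (0.35), Gapdh (0.28), Ctsz (0.48), Itgax (0.35), Ddx3y (0.11) and Eif2s3y (0.35), while Lyz2, Rps29 and Psmd8 lost their call and Chuk and Setd1b gained one; the scaling raises log2 changes, at the median by 0.49. The other alternatives kept all counts within 1.5 times. Leaving out 1 library at a time gave 1821 to 1845 genes higher, 5792 to 5855 lower, and 419 to 449 positive and 1240 to 1369 negative differences from Setd1bKO. With a pseudocount of 0.1 TPM, 953 genes were higher and 2773 lower by at least 2-fold. Setd1a and Tyrobp were called only in the fit of the compared groups alone. Besides Mad2l1, Eif2s3y lost its call without 1 library (LPS replicate 1, vehicle replicate 1 or vehicle replicate 3). Depth is unknown, so no limit could be set for genes listed at 0.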
